A study of Sus scrofa with 6 samples.

Results

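A set of 6 miRNAs with GC-rich mature sequences, from 4 hairpins, was followed in small extracellular vesicles (s-EVs) of porcine follicular fluid. They were ssc-miR-339-3p, ssc-miR-339-5p, ssc-miR-671-3p, ssc-miR-671-5p, ssc-miR-296-5p and ssc-miR-149. Of these, miR-339-3p, miR-671-3p, miR-296-5p and miR-149 were selected because their values in these same libraries were higher in the high-quality (HQ) group than in the low-quality (LQ) group. The opposite arms miR-339-5p and miR-671-5p were added for contrast. The members were 6 of the 453 miRNAs in the deposited table, and all 6 were among the 309 miRNAs with a mean above 1 CPM (reads scaled to a common library size) in either group. Because the selection used the HQ against LQ contrast, the differences of the members between the groups are a description and carry no test.

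The s-EVs came from the follicular fluid of prepubertal Landrace × Large White gilts, with 3 libraries per group and 0.5 mL of pooled fluid behind each. In the HQ group the oocyte of each follicle was not stained by lissamine green B, which enters cells with damaged membranes, and in the LQ group it was stained. The sample labels give follicles of 2 to 6 mm, while the methods of the study give a narrower range. Fluid of many follicles was pooled, and no source used here says how many animals stand behind a library, so the spread between libraries may be in part technical. A CPM value is a share of the miRNA reads of a library, multiplied by the TMM adjustment of that library. A higher release of one miRNA and a lower release of others cannot be told apart in it, nor can the cells that shed the vesicles.

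A miRNA hairpin is cut by Drosha in the nucleus and by Dicer in the cytoplasm into a short duplex. One strand of the duplex is usually kept in an Argonaute protein, where bases 2 to 8 of the miRNA, the seed, pair with target mRNAs. The 2 strands are named 5p and 3p after the arm of the hairpin they come from, and the less abundant one is often called the passenger strand. In humans and mice, miR-671-5p is known to direct the cleavage of the circular RNA CDR1as. In human endothelial cells, miR-296 is known as a promoter of angiogenesis. No function of the 4 hairpins in the porcine follicle is assumed here.

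The mature sequences of the members are shown because the arms of one hairpin, the seeds and the GC content recur in all results. They are RefSeq mature miRNAs of the Sscrofa11.1 assembly, written 5′ to 3′, with the seed in capitals.
ssc-miR-339-3p: aGCUCCUCgaggccagagccc
ssc-miR-339-5p: uCCCUGUCcuccaggagcucac
ssc-miR-671-3p: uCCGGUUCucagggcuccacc
ssc-miR-671-5p: aGGAAGCCcuggaggggcuggagg
ssc-miR-296-5p: gAGGGCCCcccccaauccugu
ssc-miR-149: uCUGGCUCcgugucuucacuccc
No 2 of these 6 sequences had the same seed, so the members were not a seed family. Their GC content was 71.4% for miR-339-3p and miR-296-5p, 70.8% for miR-671-5p, 66.7% for miR-671-3p, 63.6% for miR-339-5p and 60.9% for miR-149. The seed of miR-296-5p held 85.7% GC, and the seeds of the other members held 71.4% each. miR-339-5p, miR-671-3p and miR-149 began with U, miR-339-3p and miR-671-5p with A, and miR-296-5p with G. A first G was present in 11 of the 256 tested miRNAs of known sequence (4.30%), and a first U in 49.6%.

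The members lay at 4 separate places of Sscrofa11.1. Both arms of miR-339 came from MIR339-1 on the minus strand of chromosome 3, miR-339-5p at chr3:666966-666987 and miR-339-3p at chr3:666930-666950. This hairpin lay in an intron of C3H7orf50, on the strand of that gene. Both arms of miR-671 came from MIR671 on the minus strand of chromosome 18, miR-671-5p at chr18:5989424-5989447 and miR-671-3p at chr18:5989388-5989408. MIR671 overlapped no other annotated gene and lay 258 bp from SMARCD3, which codes for a subunit of the SWI/SNF chromatin remodeling complex. miR-296-5p lay at chr17:58970362-58970382 on the minus strand, in MIR296, between genes and 15188 bp from the GNAS complex locus. miR-149 lay at chr15:139474777-139474799 on the plus strand, in an intron of GPC1, the gene of the proteoglycan glypican-1, and on the strand of that gene. No other annotated miRNA gene was found within 10 kb of the 4 hairpins.

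The hairpins that gave both of their arms to the members are shown whole, 5′ to 3′, with the 5p and 3p arms in capitals. MIR339-1 (chr3:666918-666997) and MIR671 (chr18:5989378-5989457) are each 80 bases long in the annotation.
MIR339-1: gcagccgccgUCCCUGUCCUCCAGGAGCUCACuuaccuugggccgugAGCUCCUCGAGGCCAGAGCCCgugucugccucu
MIR671: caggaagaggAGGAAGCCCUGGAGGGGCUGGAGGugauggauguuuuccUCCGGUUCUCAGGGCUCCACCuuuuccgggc
In both hairpins the 5p arm was the more abundant strand in every library.

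The libraries differed in depth. All values of a library were whole multiples of its smallest value above 0. With that smallest value taken as 1 read, the libraries held 898530 (LQ replicate 1) to 3159116 (LQ replicate 3) miRNA reads. Across the 309 tested miRNAs, 16 were called higher in HQ and 23 higher in LQ by limma on log2(CPM + 0.5). To be called, a miRNA had to reach a 2-fold difference, a Benjamini-Hochberg adjusted p under 0.05 and more than 5 CPM on average in the higher group. The deposited values did not add up to a common sum. The sums were 948868, 915120 and 938323 in HQ replicates 1, 2 and 3, and 1.10e+06, 1.03e+06 and 1.08e+06 in LQ replicates 1, 2 and 3. With libraries rescaled to equal sums, the calls were 31 and 12, and the median log2 fold change of all tested miRNAs moved from 0.08 to 0.25. Fold changes below are on the log2(CPM + 0.5) scale, HQ minus LQ. They were not centred on the median of all tested miRNAs, which was 0.08. LQ replicate 1 was the shallowest library, and HQ replicate 3 was the HQ library whose dependence on GC content was nearest to that of the LQ libraries (described with the GC values).

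The 6 members ran over more than 2 orders of magnitude of abundance. miR-339-5p was rank 56 of the 309 tested miRNAs by mean CPM, miR-671-5p 118, miR-149 146, miR-671-3p 181, miR-296-5p 189 and miR-339-3p 234. By mean HQ level the order was miR-339-5p, miR-671-5p, miR-149, miR-671-3p, miR-296-5p and miR-339-3p. The HQ values of miR-671-5p and miR-149 overlapped, as did those of miR-671-3p and miR-296-5p, so these neighbours did not differ beyond their spread. In LQ, miR-296-5p had a higher mean than miR-671-3p, again with overlapping values, and no other neighbours in the order overlapped.

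**Figure D1:**
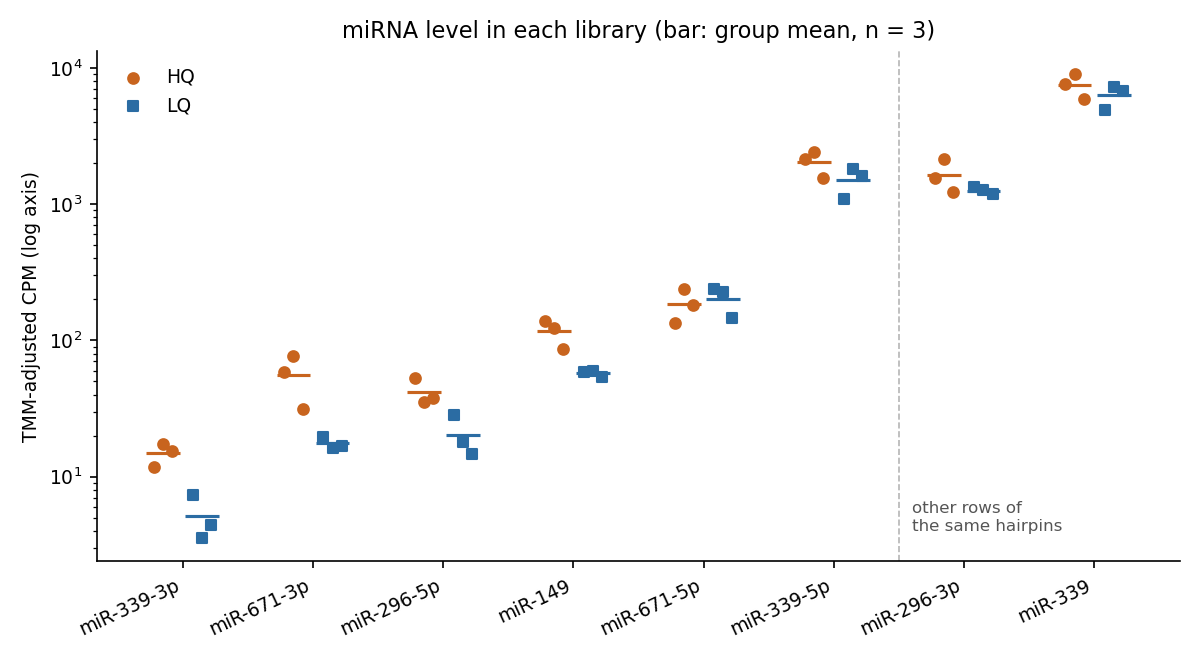
TMM-adjusted CPM (log axis) of the 6 members and, right of the dashed line, of miR-296-3p and miR-339, in each HQ (circles) and LQ (squares) library, with a bar at each group mean (n = 3). The HQ circles of miR-339-3p, miR-671-3p, miR-296-5p and miR-149 all lie above their LQ squares, while the groups overlap for miR-671-5p, miR-339-5p, miR-296-3p and miR-339.

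The members selected as raised in HQ were led by 3p arms. miR-671-3p stood at 58.2, 76.5 and 31.4 CPM in HQ replicates 1, 2 and 3 and at 19.7, 16.3 and 16.7 CPM in LQ replicates 1, 2 and 3. Every HQ library lay above every LQ library, and the lowest HQ value was 1.60 times the highest LQ value. The group means were 55.4 ± 22.7 CPM in HQ and 17.6 ± 1.83 CPM in LQ (SD, n = 3), and the log2 fold change was 1.54 (standard error 0.335). HQ replicate 3 was the low HQ library, and the HQ group varied more (coefficient of variation 41.0%) than the counting error of its reads alone would give (10.3%). In LQ the coefficient of variation was 10.4%, below the 19.1% of counting error.

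miR-339-3p, the least abundant member, stood at 11.7, 17.3 and 15.4 CPM in HQ and at 7.37, 3.53 and 4.43 CPM in LQ. These values rested on 25, 39 and 27 reads in HQ and on 6, 8 and 13 reads in LQ. The groups did not overlap, with the lowest HQ value 1.59 times the highest LQ value. The Poisson 95% intervals, which cover counting error only, were 7.59 to 17.3 CPM for the lowest HQ library and 2.70 to 16.0 CPM for the highest LQ library, which was also the shallowest. At this depth these 2 libraries were not distinguishable. The group means were 14.8 ± 2.85 CPM in HQ and 5.11 ± 2.01 CPM in LQ (SD, n = 3), and the log2 fold change was 1.49 (standard error 0.421). The coefficients of variation, 19.2% in HQ and 39.3% in LQ, were close to those of counting error, 18.5% and 35.1%.

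miR-296-5p stood at 53.0, 35.1 and 37.7 CPM in HQ and at 28.2, 18.1 and 14.6 CPM in LQ, on 113, 79 and 66 reads against 23, 41 and 43 reads. HQ replicate 1 was the high HQ library and LQ replicate 1 the high LQ library, and the gap between the groups was the narrowest of the members without overlap (lowest HQ value 1.24 times the highest LQ value). The means were 41.9 ± 9.69 CPM in HQ and 20.3 ± 7.07 CPM in LQ (SD, n = 3), and the log2 fold change was 1.06 (standard error 0.324).

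miR-149 stood at 140, 124 and 86.2 CPM in HQ and at 59.0, 59.1 and 53.5 CPM in LQ. The LQ libraries lay within a narrow band (coefficient of variation 5.61%), and HQ replicate 3 was again the low HQ library. The means were 117 ± 27.6 CPM in HQ and 57.2 ± 3.21 CPM in LQ (SD, n = 3), with the lowest HQ value 1.46 times the highest LQ value. The log2 fold change was 0.996 (standard error 0.267), just short of the fold of 2, so miR-149 was not called by the fit used here, although the ratio of its mean CPM was 2.04. The study, with the same thresholds in its own software, lists miR-149 among the miRNAs upregulated in HQ.

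Among the members, 3 of 6 were called higher in HQ, against 5.18% of all tested miRNAs, and 4 of 6 had every HQ library above every LQ library, against 21.0% of all tested miRNAs. Since the members were selected on this contrast, nothing is read from these counts. On the HQ side, among miRNAs that met the other criteria of a call, those nearest to the fold threshold were miR-425-5p (0.97) and miR-149 (0.996) below it, and miR-320 (1.001) and miR-296-5p (1.06) above it.

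The 5p arms added for contrast showed smaller differences, with overlapping groups. miR-671-5p stood at 135, 238 and 182 CPM in HQ and at 238, 225 and 145 CPM in LQ. The highest values of both groups were nearly equal. The means were 185 ± 51.7 CPM in HQ and 203 ± 50.4 CPM in LQ (SD, n = 3), and the log2 fold change was -0.14 (standard error 0.277).

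miR-339-5p, the most abundant member, stood at 2137, 2401 and 1563 CPM in HQ and at 1096, 1802 and 1600 CPM in LQ. HQ replicate 3 lay below LQ replicates 2 and 3. The means were 2034 ± 428 CPM in HQ and 1499 ± 364 CPM in LQ (SD, n = 3), and the log2 fold change was 0.45 (standard error 0.244). The coefficients of variation were 21.0% in HQ and 24.3% in LQ, wider than the 1.60% and 2.29% of counting error alone. The source of this spread was not tested.

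The strands of the miR-671 hairpin took different shares in the 2 groups. The 3p strand made up 30.2%, 24.3% and 14.7% of both arms in HQ and 7.62%, 6.76% and 10.3% in LQ. These shares did not overlap, and their means were 23.1% ± 7.79 in HQ and 8.23% ± 1.85 in LQ (SD, n = 3). The log2 ratio of miR-671-3p to miR-671-5p was -1.78 ± 0.668 in HQ and -3.46 ± 0.343 in LQ (SD, n = 3), a difference of 1.68. miR-671-5p remained the major strand in all 6 libraries, at 2.31 to 5.78 times miR-671-3p in HQ and 8.69 to 13.8 times in LQ. Both arms were read in the same library, so its scaling cancels in the shares.

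In the miR-339 hairpin the 3p strand was a trace. Its share was 0.546%, 0.717% and 0.976% of both arms in HQ and 0.668%, 0.195% and 0.276% in LQ. LQ replicate 1 lay among the HQ libraries, so the groups overlapped. These shares take the row miR-339-5p alone as the other arm. The nested row miR-339, described below, was more abundant (mean 7513 CPM in HQ and 6303 CPM in LQ). It may hold reads of the same 5p arm, in which case the 3p shares would be lower. The mean shares were 0.747% ± 0.217 in HQ and 0.380% ± 0.253 in LQ (SD, n = 3), and the log2 ratio of 3p to 5p was higher by 1.04 in HQ. In the miR-296 hairpin the member is the minor strand as well. miR-296-5p made up 3.31%, 1.60% and 2.96% of both arms in HQ and 2.09%, 1.41% and 1.22% in LQ, with overlapping groups and a log2 ratio of 5p to 3p that was higher by 0.70 in HQ.

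**Figure D2:**
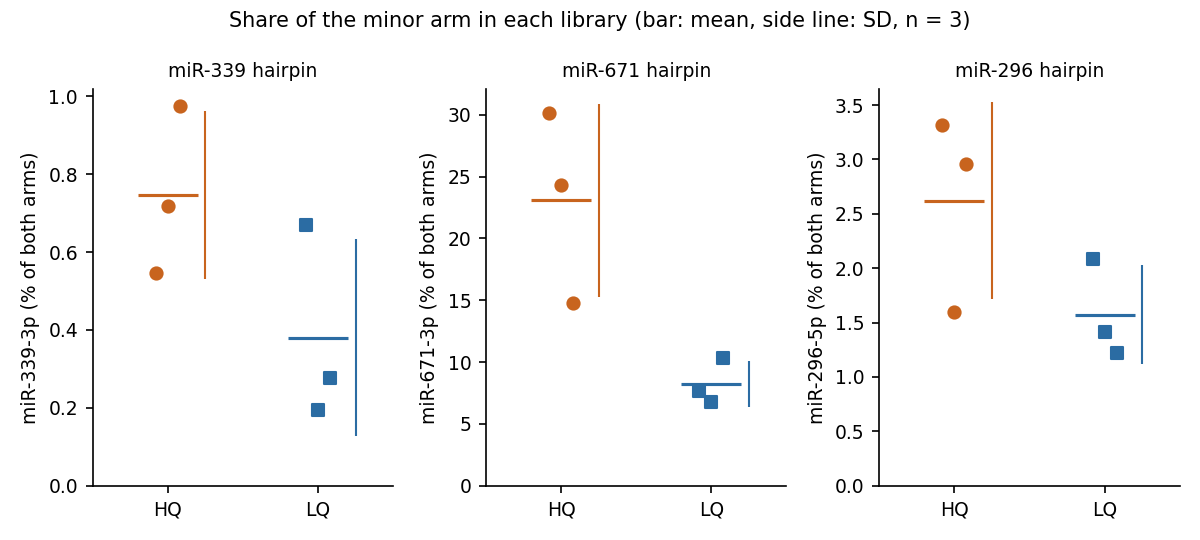
Share of the less abundant strand (percent of both arms of the hairpin) in each HQ and LQ library for miR-339-3p, miR-671-3p and miR-296-5p, with a bar at the mean and a side line for the SD (n = 3), each panel with its own axis from 0. The miR-671-3p shares lie between 14.7% and 30.2% in HQ and between 6.76% and 10.3% in LQ, while the groups overlap in the other panels. The miR-339-3p panel takes the row miR-339-5p alone as the other arm, without the nested rows.

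Changes of this kind went both ways in other hairpins. Of 66 hairpins with both arms tested, the 3p to 5p ratio was higher in HQ in 32, with a median difference of -0.02 on the log2 scale and a median size of 0.656. Differences ran from -1.84 to 1.93, and the groups did not overlap in 20. By size, miR-671 was 4 of 66, miR-339 was 15 and miR-296 was 31. Among the 45 hairpins with both arms above 5 CPM, the largest rises of the 3p to 5p ratio in HQ were those of miR-671 (1.68), miR-532 (1.51) and miR-142 (1.21). The largest falls in the same set were those of miR-374b (-1.84), miR-1306 (-1.32) and miR-708 (-1.06). miR-671 was selected with its arms in view, so its place in this order is a description.

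The partner rows of the members were named by hairpin or seed and were fitted with limma, but they were not independent of the selection. The lists were chosen with earlier results of these data known. A GC-rich partner raised in HQ could itself have been a member. The row miR-339 may also share reads with a member, as described below. The fits of the partners are therefore a description. miR-296-3p, the major strand of MIR296 (chr17:58970327-58970347), stood at 1547, 2166 and 1237 CPM in HQ and at 1326, 1261 and 1183 CPM in LQ. HQ replicate 3 lay below LQ replicates 1 and 2. Its log2 fold change was 0.36 (95% interval -0.14 to 0.85, adjusted p = 0.265 from limma with Benjamini-Hochberg adjustment). The row named miR-339 stood at 7571, 9046 and 5921 CPM in HQ and at 4887, 7243 and 6779 CPM in LQ. Its log2 fold change was 0.25 (95% interval -0.21 to 0.71, adjusted p = 0.413 from limma), also with overlapping groups. Neither interval excludes a moderate rise in HQ, so the missed threshold does not show that the partners stayed level.

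The row miR-339 and a further row, miR-4334-3p, had the seed of miR-339-5p, and they were the only tested miRNAs of known sequence with the seed of a member. Their sequences are shown because they are nested in miR-339-5p, base by base from the same start.
ssc-miR-339-5p: uCCCUGUCcuccaggagcucac
ssc-miR-339: uCCCUGUCcuccaggagcuca
ssc-miR-4334-3p: uCCCUGUCcuccaggagcuc
The 3 rows had lengths of 22, 21 and 20 bases and differed only in their 3′ ends. The annotation placed miR-339 in MIR339-2 (chr1:164026027-164026047, minus strand, in an intron of MEGF11) and miR-4334-3p in MIR4334 (chr15:121399652-121399671, plus strand, in an intron of DNPEP and opposite to its strand). In the whole Sscrofa11.1 sequence, miR-339-5p matched exactly at 2 places, of which one, on chromosome 11, carried no miRNA annotation. miR-339 matched at 3 places and miR-4334-3p at 5, while miR-339-3p, miR-671-3p, miR-671-5p, miR-296-5p and miR-149 each matched only at their own locus. A read that ends early can therefore fit more than one of the 3 rows, and the sources used here do not say how the authors' software divided such reads. The separate levels of miR-339-5p, miR-339 and miR-4334-3p are uncertain for this reason.

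miR-4334-3p stood at 41.3, 72.5 and 52.5 CPM in HQ and at 33.2, 27.8 and 32.0 CPM in LQ. All HQ values were above all LQ values, with a log2 fold change of 0.80 (95% interval 0.18 to 1.41, adjusted p = 0.0509 from limma), which missed the threshold. None of miR-339, miR-296-3p and miR-4334-3p passed the test at an adjusted p of 0.05, which 26.5% of all tested miRNAs did. Such GC-rich rows, if raised in HQ, could have been members, so nothing is read from this count. The sum of the 3 nested rows, formed after their sequences had been seen, was 9602 ± 1995 CPM in HQ and 7833 ± 1608 CPM in LQ (SD, n = 3), and the log2 fold change was 0.29 (95% interval -0.17 to 0.75, adjusted p = 0.330 from limma). Within the sum, miR-339-5p took 20.7% to 21.9% in HQ and 18.2% to 19.9% in LQ, so its share was slightly higher in every HQ library. miR-339 took 78.2% ± 0.515 in HQ and 80.6% ± 0.706 in LQ (SD, n = 3). With the sum in place of miR-339-5p, the 3p to 5p log2 ratio of miR-339 was higher by 1.20 in HQ.

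The GC content that the selection named also went with the group difference across the table. Over the 256 tested miRNAs of known sequence, the log2 fold change rose by 0.37 for each 10 points of GC content (Pearson's r 0.445 across miRNAs, which share the libraries and are not independent replicates). The slope of each library against the mean of all libraries was 0.250, 0.243 and 0.0568 per 10 points in HQ and -0.170, -0.180 and -0.199 in LQ. The slopes did not overlap between the groups, and HQ replicate 3 was the HQ library nearest to LQ. HQ replicate 3 was also the lowest HQ library for miR-671-3p, miR-149 and miR-339-5p, but not for miR-339-3p, miR-296-5p and miR-671-5p.

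Only 5 miRNAs had a higher GC content than miR-339-3p and miR-296-5p. The 37 other miRNAs with a GC content of at least 60.9%, that of miR-149, had a median log2 fold change of 0.54, and 31 of them were positive. The 213 miRNAs below that content had a median of -0.02, and 103 of them were positive. Of the 37, 16 had every HQ library above every LQ library, beside the 21.0% of all tested miRNAs. By limma, 8 of the 37 passed an adjusted p of 0.05 toward HQ and 2 toward LQ. Of all 256 tested miRNAs of known sequence, members included, 34 passed it toward HQ and 41 toward LQ. With the fold and level thresholds, 2 of the 37 were called in each direction, beside the 5.18% of all tested miRNAs called higher in HQ. Both the 5.18% and the 21.0% include the members, which the 37 leave out, and 3 members were called higher in HQ. The shares therefore rest on unlike sets, and nothing is read from how close they are. miR-671-5p stood apart from the trend, with a GC content of 70.8% and a log2 fold change of -0.14, where the line across miRNAs passed through 0.82. The line passed through 0.67 at the GC content of miR-671-3p and through 0.85 at that of miR-339-3p and miR-296-5p.

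**Figure D3:**
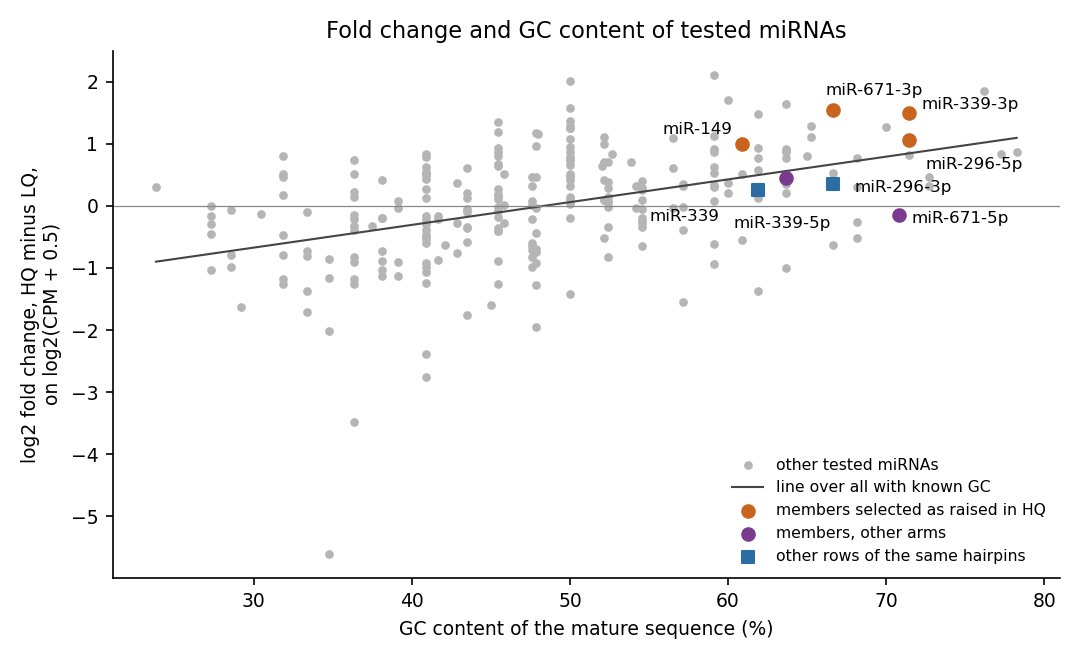
Log2 fold change (HQ minus LQ, on log2(CPM + 0.5)) against the GC content of the mature sequence (percent) for the 256 tested miRNAs of known sequence, with the line fitted over all of them. miR-671-3p (1.54) and miR-339-3p (1.49) lie above the line, miR-296-5p and miR-149 closer to it, and miR-671-5p (-0.14) below it.

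The fold changes of all 6 members depended on whether this trend was taken out. With each library's line on GC content subtracted, the log2 fold change was 0.87 for miR-671-3p, 0.65 for miR-339-3p, 0.54 for miR-149 and 0.21 for miR-296-5p. It was -0.11 for miR-339-5p and -0.96 for miR-671-5p. After the correction, every HQ library lay above every LQ library for miR-671-3p and miR-149. For miR-671-5p all 3 LQ values lay above all 3 HQ values, and the groups overlapped for the other members. Before the correction, 65 of the 309 tested miRNAs had every HQ library above every LQ library, and 70 the reverse. The share after it was not determined, and the members were chosen with this contrast known, so nothing is read from these separations. The correction removes any group difference that follows GC content, whatever its source, and what the GC trend itself comes from was not tested. The arm ratios moved less, which follows from the correction itself. It shifts a ratio only through the difference in GC content between the arms, so nothing is read from the smaller move. The difference in the miR-671 ratio was 1.83 after correction against 1.68 before, that of miR-339 was 0.76 against 1.04, and that of miR-296 was 0.53 against 0.70.

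**Figure D4:**
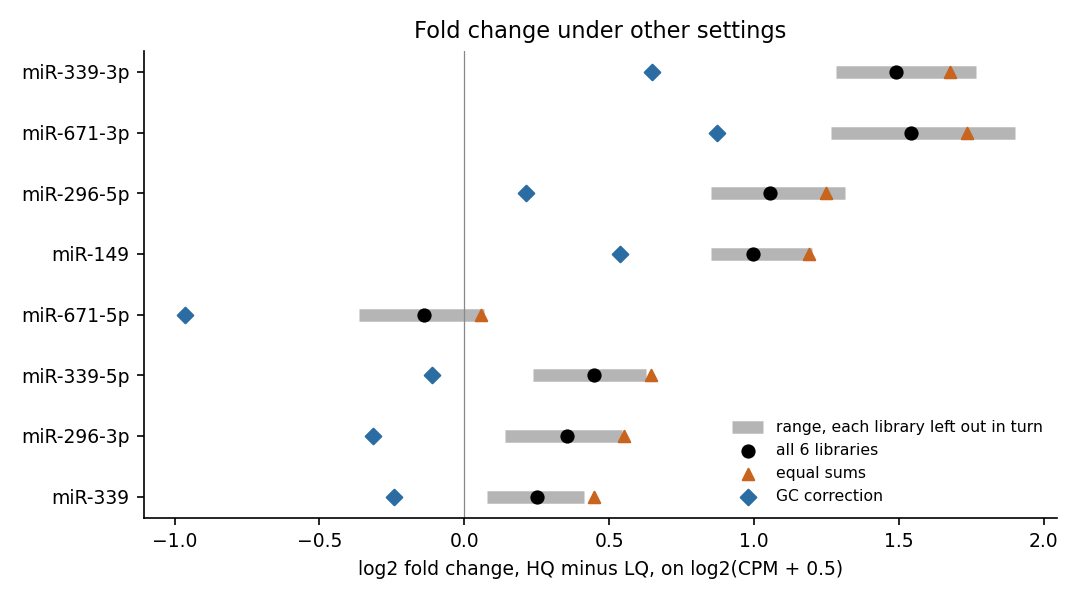
Log2 fold change (HQ minus LQ) of the members, miR-296-3p and miR-339 over all 6 libraries (black circles), with each library left out in turn (grey range), with equal library sums (triangles) and after the GC correction (diamonds). miR-339-3p, miR-671-3p, miR-296-5p and miR-149, selected as higher in HQ in these libraries, stay above 0 in every setting shown. The diamonds of miR-671-5p (-0.96), miR-339-5p (-0.11), miR-296-3p (-0.32) and miR-339 (-0.24) lie below 0.

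The patterns of the members over the 6 libraries were compared by Pearson's r of log2(CPM + 0.5), as a description over points that share depth and scaling. The raised members were selected for the same step between HQ and LQ and the other arms were added without it, so these r values in part restate the selection and nothing is read from them. The r was 0.969 between miR-671-3p and miR-149. miR-339-3p had an r of 0.859 with miR-671-3p, 0.846 with miR-296-5p and 0.813 with miR-149. Between the arms of a hairpin, r was 0.361 for miR-339-3p with miR-339-5p and -0.07 for miR-671-3p with miR-671-5p.

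Among 256 tested miRNAs with a mean of at least 5 CPM, those most like each member were the following, and the same limit applies to the raised members. For miR-671-3p they were miR-486 (0.993), a miRNA enriched in red blood cells, miR-187 (0.989) and miR-6529 (0.986). For miR-149 they were miR-99b (0.994), miR-486 (0.990) and miR-125b (0.987). For miR-296-5p they were miR-23b (0.990), let-7e (0.968) and let-7a (0.967), the last of which belong to the let-7 family of differentiation-linked miRNAs. For miR-339-3p they were miR-1271-5p (0.967), miR-10a-5p (0.942) and miR-155-5p (0.940), the last a miRNA of activated immune cells. For miR-339-5p they were miR-7137-5p (0.973), the nested row miR-339 (0.972) and miR-33b-5p (0.959). miR-671-5p had the weakest likeness, to miR-181d-5p (0.882), miR-181b (0.879) and miR-215 (0.851).

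Some markers of cells that could shed vesicles into the fluid did not overlap between the groups, and others did. Of the 3 erythrocyte markers, miR-486 ran from 92.5 to 145 CPM in HQ and from 63.7 to 67.6 CPM in LQ. miR-451, the defining one, ran the other way, with a mean of 6.22 CPM in HQ and 15.1 CPM in LQ, and miR-144 was at 0 in all HQ libraries and at most 1.36 CPM in LQ. The summed level of this list was 99.3 to 152 CPM in HQ and 78.0 to 87.3 CPM in LQ. The 2 endothelial markers summed to 874 to 1062 CPM in HQ and 1619 to 2149 CPM in LQ. Most of that gap lay in miR-126-5p (mean 718 CPM in HQ and 1587 CPM in LQ), while the values of miR-126-3p overlapped (243 to 337 CPM and 282 to 354 CPM). The 5 leukocyte markers summed to 193 to 213 CPM in HQ and 217 to 318 CPM in LQ, and their members did not move together. miR-142-5p was higher in every LQ library (mean 32.0 CPM in HQ and 87.0 CPM in LQ) and miR-155-5p in every HQ library (58.8 to 69.8 CPM and 42.3 to 45.4 CPM), while miR-142-3p, miR-223 and miR-150 overlapped. The gonad markers miR-202-5p and miR-202-3p were abundant in every library, at overlapping sums of 40260 to 89364 CPM in HQ and 61414 to 76637 CPM in LQ. Most of that sum was miR-202-5p, whose values overlapped (39008 to 88612 CPM in HQ and 61054 to 76086 CPM in LQ). miR-202-3p was higher in every HQ library (714 to 1252 CPM in HQ and 360 to 604 CPM in LQ). The part of these cell types in the levels of the members was not tested.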

How the data were processed

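Small RNA from s-EVs of 3 HQ and 3 LQ pools was sequenced as single-end reads. Per the methods of the study, reads were trimmed, mapped to Sscrofa11.1 and quantified against miRBase with CLC Genomics Workbench, followed by TMM scaling. Both the methods and GEO's processing field name bcl2fastq. The field also lists Bowtie2 2.2.2 and DESeq2, which the methods do not, and the sources used here do not settle which tools produced the table. Its values are, as deposited, a TMM-adjusted CPM signal. They lay within 6.66e-05 of whole multiples of 1 step per library, but low values were too few to take the steps as proven reads, so no count test was run. Reads given here take 1 step as 1 read. At 1 CPM the precision is that of 1 to 3 reads.

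Groups follow the oocyte quality stated for each sample, and the labels name no batch. Every miRNA averaging more than 1 CPM in HQ or LQ entered a limma fit (limma 3.58.1, R 4.3.3) of log2(CPM + 0.5), with a trend in the variance prior, two-sided, and Benjamini-Hochberg adjustment over all 309. The members and lists were chosen with earlier results of these data known. Named beside the members were rows of the same hairpins, miRNAs with a shared seed, the 3 most alike miRNAs per member and the 3 largest arm changes per direction. Sequences and positions came from RefSeq (Sscrofa11.1). They were matched by name for 347 miRNAs and without the arm for 20, while 86 had no match. GC content was known for 256 tested miRNAs (82.8%). The fit was also run on simulated counts with the same dispersion for all miRNAs and no GC trend. That setting lacks the GC trend of these libraries, so nothing is read from it here. Alternatives covered the pseudocount, scaling, filter, prior, array weights, a replicate block, a GC correction, each library left out and, chosen after seeing the data, the sum of nested rows. Target genes and ddPCR were not analysed here. Python 3.11.15 and matplotlib 3.10.9 drew the figures.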

Additional observations from a re-analysis of the deposited data

How the results depend on the processing

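miR-339-3p, miR-671-3p, miR-296-5p and miR-149 kept a positive log2 fold change in all 18 alternatives. The call was met in 12 of them for miR-339-3p, 14 for miR-671-3p, 9 for miR-296-5p and 6 for miR-149. In the main fit, 5.18% of all tested miRNAs were called higher in HQ. These members were selected as higher in HQ in these same libraries, so nothing is read from their signs or counts of calls. With each library left out in turn, the log2 fold change ran from 1.28 to 1.77 for miR-339-3p, 1.27 to 1.90 for miR-671-3p, 0.85 to 1.32 for miR-296-5p, 0.85 to 1.20 for miR-149, 0.24 to 0.63 for miR-339-5p, -0.36 to 0.07 for miR-671-5p, 0.08 to 0.41 for miR-339 and 0.14 to 0.54 for miR-296-3p. The change of the arm ratio ran from 1.39 to 2.05 for miR-671 and from 0.69 to 1.53 for miR-339. With a pseudocount of 5, miR-339-3p was at 0.98. After the GC correction, with or without the replicate block, the values were 0.65 for miR-339-3p, -0.11 for miR-339-5p, 0.87 for miR-671-3p, -0.96 for miR-671-5p, 0.21 for miR-296-5p and 0.54 for miR-149. The sign turned for miR-339 (-0.24, limma adjusted p = 0.422, and 0.452 with the block) and for miR-296-3p (-0.32, 0.305 and 0.325), neither past the threshold before or after.

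Over all tested miRNAs, 16 were called higher in HQ, 23 higher in LQ, and 82 had an adjusted p under 0.05 by limma. The HQ calls were 31 with equal sums, 1 without the filter, 10 without the trend and 7 (without HQ replicate 2) to 24 (without HQ replicate 3) with a library left out. The LQ calls were 12 with equal sums, 11 after GC correction, 15 with the replicate block and GC correction, 4 without the filter, 14 without the trend, 35 with array weights and 15 (without HQ replicate 2) to 34 (without LQ replicate 1) with a library left out. The miRNAs with an adjusted p under 0.05 were 7 without the filter, 29 without the trend and 29 (without HQ replicate 2) to 113 (without LQ replicate 1) with a library left out, and 47 without LQ replicate 2. The cause was not tested. No pairing by replicate number was seen in the values (r of same-numbered libraries -0.0360 to -0.00522, with no HQ library most like the LQ library of its own number). With 3 libraries per group, this cannot show that same-numbered pools were collected or prepared apart. The replicate block gave 18 HQ calls, 26 LQ calls and 97 miRNAs with an adjusted p under 0.05. Depth limits miR-339-3p most, at 6 to 13 reads in the LQ libraries.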
